A study of Mus musculus with 10 samples.

Results

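The lysosome is the acidic compartment in which cells degrade engulfed and worn-out material, and 33 genes that encode its working parts were examined in mouse microglia. They comprise 14 soluble enzymes, 3 soluble proteins that are not enzymes, 10 membrane proteins and 6 subunits of the vacuolar proton pump, the V-ATPase. The genes were chosen by name, for what their proteins do, from 20696 autosomal protein-coding genes of the mm10 assembly. H3K4me3, a histone mark of promoters, was measured by ChIP-seq in 2 libraries, and contacts between promoters and other DNA were measured by PLAC-seq, which ligates nearby DNA ends and then enriches for H3K4me3, in 2 libraries that the authors combined in 1 list.

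Microglia, the resident macrophages of the brain, take up synaptic material, myelin, lipoproteins and dying cells, and depend on lysosomes to break these down. Soluble hydrolases are made as precursors and delivered through the Golgi, membrane proteins form the limiting barrier and carry ions, lipids and amino acids across it, and the V-ATPase pumps protons inward to hold the low pH at which the hydrolases work. The membrane sector of the pump, V0, forms the path of the protons, and the cytosolic sector, V1, hydrolyzes ATP. Inherited loss of many of these proteins causes lysosomal storage disease, often with neurodegeneration. Many lysosomal genes share a promoter element, named CLEAR, whose center is an E-box and which is bound by TFEB and its relatives.

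All H3K4me3 and PLAC-seq libraries came from wild-type mice of the strain C57/Bl6 (C57BL/6J in the study's methods), from whole cells of the brain sorted as CD45+ CD11b+ CX3CR1+. Per the study's methods the CD45 gate was low, and the mice were young adult males. The labels do not say whether libraries came from separate animals, so the spread between replicates may be technical. The remaining samples of the series, 2 input and 4 Hi-C libraries of wild-type or Sall1 enhancer knockout microglia, gave no values of their own here, and no genotype was compared.

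The H3K4me3 libraries held 12.8 and 13.4 M tags, which are mapped reads, and gave 27845 and 26574 peaks. The sorted cells carried the mark at 8 of 8 microglia marker genes, against 2 of 6 neuronal, 4 of 6 astrocyte, 2 of 5 autosomal oligodendrocyte, 2 of 6 endothelial and 1 of 6 monocyte and border macrophage markers. Of these non-microglial genes, the astrocyte gene Slc1a3 (204.9 and 212.6 tags per 10 M) and the oligodendrocyte gene Mbp (162.8 and 210.3) lay within the range of the microglia genes, 125 to 301.2. The contribution of such cells to the values below was not tested. In a bulk library, a mark present in fewer cells and a lower mark in every cell cannot be told apart.

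Promoter sequence was read for 28 of the 33 genes from RefSeq windows of GRCm38.p6, each with 250 bases before and 50 after a start. Asah1, Galns, Npc1, Atp6v1b2 and Atp6v1h had no window. The E-box core CACGTG lay in 7 of 28 windows (25.0%), against 8.18% of 15680 windows of protein-coding genes and 10.5% of the 9630 windows of genes with H3K4me3 in both replicates. The longer form TCACGTG, searched on both strands, so that CACGTGA counts as well, lay in the same 7 windows, against 4.57% of all windows and 6.27% of those of marked genes. It overlaps the core by construction. The palindrome TCACGTGA was in 4 windows, 14.3% against 1.28%. The stretches below carry each of these boxes in its own promoter, on the strand of the gene, with the box and any flanking T or A that completes the longer form in capitals.

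Lamp1: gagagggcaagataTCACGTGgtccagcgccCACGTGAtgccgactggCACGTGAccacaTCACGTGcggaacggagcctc
Atp6v0b: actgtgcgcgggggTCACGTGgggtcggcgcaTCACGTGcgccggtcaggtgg
Atp6v0d1: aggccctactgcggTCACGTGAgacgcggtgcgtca
Atp6v1a: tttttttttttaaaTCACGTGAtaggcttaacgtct
Mcoln1: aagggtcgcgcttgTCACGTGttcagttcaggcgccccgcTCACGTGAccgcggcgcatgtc
Cln3: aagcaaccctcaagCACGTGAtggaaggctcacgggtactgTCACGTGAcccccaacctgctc
Glb1: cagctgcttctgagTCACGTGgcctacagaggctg

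The Lamp1 stretch spans chr8:13159085-13159165 on the plus strand and holds 4 boxes, which start 61, 45, 28 and 15 bases before the RefSeq start. Atp6v0b holds 2 boxes, 36 and 18 bases before its start, at chr4:117887328-117887380 on the minus strand. The box of Atp6v0d1 starts 3 bases before the start, at chr8:105566047-105566082 on the minus strand, and that of Atp6v1a 131 bases before it, at chr16:44139370-44139405 on the minus strand. Mcoln1 has boxes 71 and 45 bases upstream (chr8:3500433-3500494, plus strand), Cln3 has boxes 149 and 121 bases upstream (chr7:126583337-126583399, minus strand), and Glb1 has 1 box 48 bases upstream (chr9:114401015-114401049, plus strand). All 13 boxes of these genes lay within 150 bases upstream of the start, where 69.2% of the 812 boxes of the longer form in all windows lay.

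By class, the E-box was found at 3 of 4 V-ATPase subunits with a window, 3 of 9 membrane proteins, 1 of 12 soluble enzymes and 0 of 3 soluble non-enzymes. Among 64 windows of other lysosomal genes, 13 held the longer form (20.3%). Other short motifs were as follows. The GC box GGGCGG was in 67.9% of the members' windows, against 69.4% for marked genes, and CCAAT was in 39.3%, against 37.4%. GAGGAA, the core of sites of the myeloid factor PU.1, was in 35.7%, against 25.6%, a direction that turned in windows of 1 kb centered on the start (53.6% against 61.4%). TATAAA was in 3 windows (10.7%), those of Lipa, Laptm5 and Laptm4a, which is above the 5.85% of marked genes but below the 12.7% of all windows. TGACGTCA was in 1 window (3.57%, against 3.43%), that of Gusb. TGACTCA, the AP-1 core, was in 5 windows (17.9%, against 2.99% of marked genes) and in 0 of 64 windows of the other lysosomal genes. The 5 windows were those of Glb1, Neu1, Psap, Laptm4a and Cd68, and at Glb1 a match shares bases with the E-box. In windows of 1 kb the AP-1 core was in 25.0% of members, 9.46% of marked genes and 9.38% of the other lysosomal genes. The members' windows were poorer in CpG than those of marked genes, with a median ratio of observed to expected CpG of 0.586 against 0.795 and a median GC content of 56.8% against 62.3%. The 4 V-ATPase windows had a median CpG ratio of 0.9 and the 9 membrane protein windows of 0.431.

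Every 1 of the 33 members was marked. A gene was called marked if both replicates had a peak no farther than 1 kb from a transcription start site (TSS) of it, which held for 33 of 33 members and for 59.4% of all autosomal protein-coding genes. The H3K4me3 value of a gene is that of its tallest such peak, in tags per 10 M mapped tags, as the mean of both replicates. The members' median was 276.6 (274.2 in replicate 1 and 290.9 in replicate 2), against 220.4 for the 12291 marked genes, and the median member stood at the 72.6th percentile of marked genes. In both replicates, 21 of 33 members lay above the median of marked genes, as did 45.1% of all marked genes. The members were all at least 35.3-fold above input in each replicate, by the authors' ratio.

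**Figure D1:**
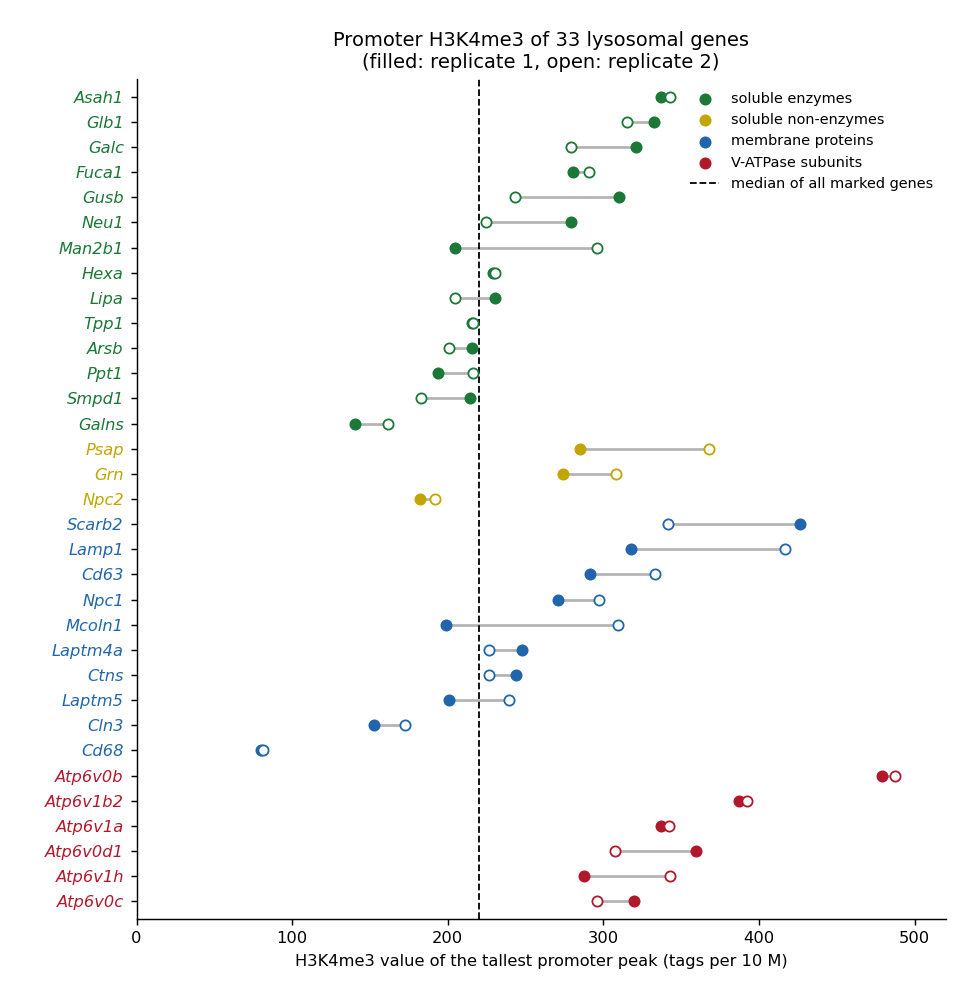
H3K4me3 value of the tallest promoter peak of each lysosomal gene in tags per 10 M, with replicate 1 filled and replicate 2 open, colored by class and ordered by mean within a class. The dashed line is the median of all 12291 marked genes (220.4). All 6 V-ATPase subunits lie to its right in both replicates, Atp6v1a through a peak nearer to a TSS of Naa50, and Cd68 is lowest at 80.2 and 81.3.

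Among the members, the 6 subunits of the proton pump had the highest median mark of the 4 classes. It was 336.6, against 291.1 for soluble non-enzymes, 245.7 for membrane proteins and 240.1 for soluble enzymes. The 11 other marked autosomal pump subunits, described below, had a lower median of 272.5, so the high level holds for the chosen subunits. All 6 pump subunits lay above the median of marked genes in both replicates, or 5 of 6 with Atp6v1a's own downstream peak, given below, against 7 of 14 enzymes, 6 of 10 membrane proteins and 2 of 3 soluble non-enzymes. The classes overlapped nonetheless, since Scarb2, Asah1 and Glb1 exceeded Atp6v0c, the subunit with the lowest mean, in both replicates. With libraries of 1 group, no test between classes was made.

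Atp6v0b, which encodes a proteolipid of the proton-conducting ring, reached 479.1 in replicate 1 and 487.1 in replicate 2, with 615 and 654 tags under the peak. It ranked 14th of 12291 marked genes. Its replicates lay above those of every other member.

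Atp6v1b2 encodes the B2 subunit of the catalytic V1 head and stood at 387.2 and 392.4. Atp6v1a, the catalytic A subunit, had 337.3 and 342.4, and Atp6v0d1, which links the ring to the central stalk, had 359.2 and 307.3. Atp6v1h, a regulatory subunit of V1, had 287.5 and 343.1, and Atp6v0c, the main ring proteolipid, had 319.4 and 296.1. The ranges of the latter 4 subunits overlapped, except that both values of Atp6v1a lay above both values of Atp6v0c.

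The value of Atp6v1a came from a peak that is nearer to another gene. Its tallest peak was centered at -888 and -880 bp from its own TSS, where negative is upstream, and 301 and 293 bp downstream of a TSS of Naa50, an N-terminal acetyltransferase gene read in the opposite direction. Its own downstream peak reached 209.6 and 258.8, with a mean of 234. In replicate 1 that lies below the median of marked genes in this replicate, 215.8. With peaks counted within 500 bp of a TSS, the median of the pump subunits was 324.3.

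Scarb2, the lysosomal receptor that delivers glucocerebrosidase, and Lamp1, an abundant glycoprotein of the limiting membrane, led the membrane proteins. Scarb2 had 426.2 in replicate 1 and 341.6 in replicate 2, and Lamp1 had 317.9 and 417, so their order turned between replicates. Cd63, a tetraspanin, had 291.4 and 333.4. Npc1, the membrane exporter of cholesterol, had 271.1 and 296.9, above its soluble partner Npc2, which hands it cholesterol in the lumen and had 182.3 and 191.7.

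Cd68, the sialomucin by which macrophages are often stained, had the lowest mark of the set. Its peak reached 80.2 in replicate 1 and 81.3 in replicate 2, from 103 and 109 tags, at the 18.6th percentile of marked genes. Both values lay below those of all other members. Cln3, a membrane protein lost in juvenile Batten disease, had 152.7 and 172.3, and Laptm5, a transporter-like protein of hematopoietic lysosomes, had 201 and 239.4.

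Among enzymes, Asah1, the acid ceramidase, was highest with 337.3 and 343.1. Glb1, the beta-galactosidase, followed with 332.7 and 315.5, and its TSS lies 29 bp from that of Tmppe on the same strand, so the peak cannot be assigned to 1 of them. Galc, the galactosylceramidase that degrades a myelin lipid, had 321 and 279. Galns, which removes sulfate from keratan sulfate, was lowest with 140.2 and 161.9, and Smpd1, the acid sphingomyelinase, had 214.2 and 182.7. The remaining enzymes, Fuca1, Gusb, Neu1, Man2b1, Hexa, Lipa, Tpp1, Arsb and Ppt1, had means between 205.2 and 285.7.

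The soluble non-enzymes differed among themselves. Psap, the precursor of the saposins that present lipids to hydrolases, had 285.1 and 367.7, and Grn, the progranulin whose loss causes frontotemporal dementia, had 274.2 and 308.1. Npc2 lay below both in each replicate.

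Most neighbors in the order of levels could not be separated. Of 32 pairs of neighbors, 3 did not overlap between replicates, namely Atp6v0b over Atp6v1b2, Npc2 over Cln3, and Galns over Cd68. The replicates of a gene differed beyond counting error, by an exact binomial interval at 95% on its tags, for 10 of 33 members, against 26.3% of marked genes. Of these, 6 were higher in replicate 2 and 4 in replicate 1. The widest gap was at Mcoln1, a calcium channel of the lysosome, with 198.7 against 309.6 (0.64 on the log2 scale), followed by the mannosidase gene Man2b1 with 204.9 against 296.1 (0.53). The SD of the log2 ratio between replicates was 0.24 over members and 0.31 over all marked genes.

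The mark lay mostly inside the genes. The tallest peak was centered downstream of the nearest TSS of the gene at 29 of 33 members in each replicate (87.9%), against 80% and 79.8% of marked genes. The median position was 213 and 235 bp downstream, against 144 and 142 bp. No member had a peak over the TSS base itself in both replicates, as 13.4% of marked genes did. As deposited, peaks were 184 bp wide in replicate 1 and 188 bp in replicate 2. A single promoter peak in each replicate was found at 20 members (60.6%, against 57.7% of marked genes).

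**Figure D2:**
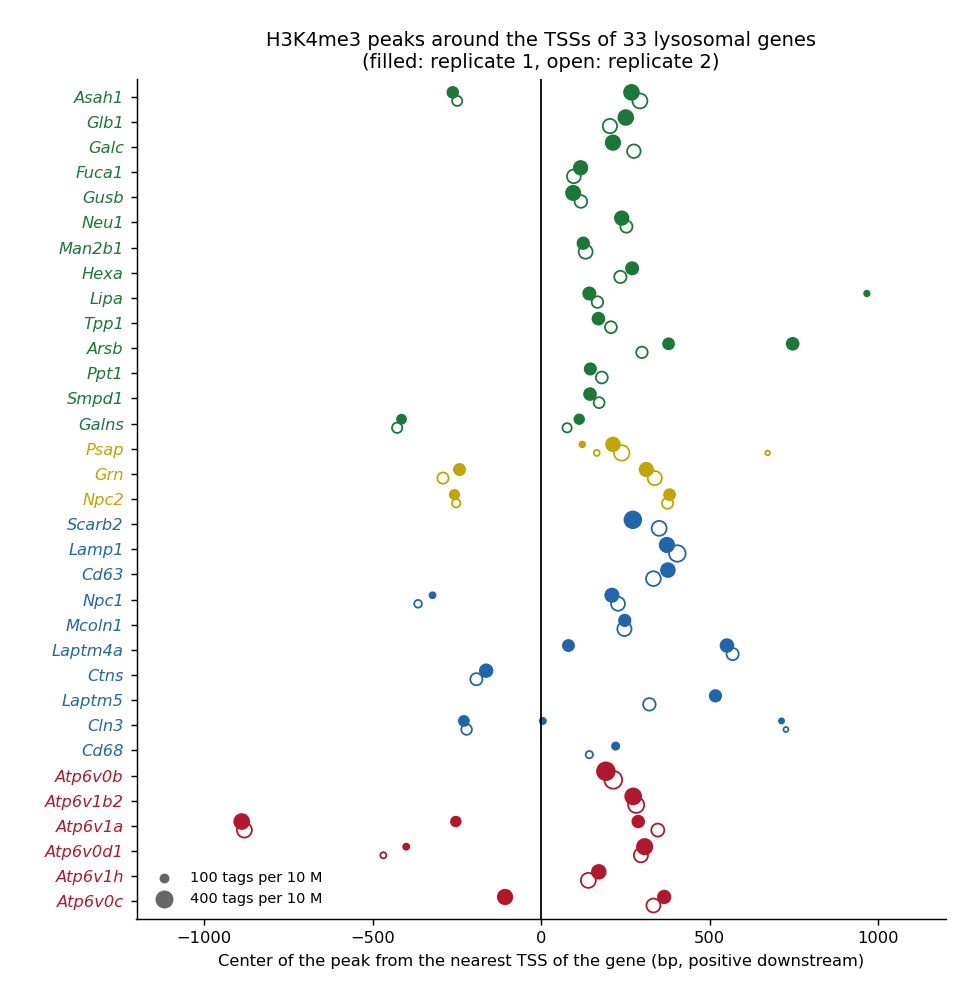
Centers of all H3K4me3 peaks within 1 kb of a TSS of each lysosomal gene, in bp from the nearest TSS with downstream positive. The area of a circle is proportional to the value of the peak in tags per 10 M, and replicate 1 is filled and replicate 2 open. At 29 of 33 genes in each replicate the tallest peak is right of 0, and Atp6v1a has its tallest peak near -888 bp, at the start of Naa50.

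The members with an upstream tallest peak were Atp6v1a, Ctns and Cln3 in both replicates, Atp6v0c in replicate 1 and Galns in replicate 2. Another gene starts within 1 kb of 8 members, and at 7 of these it lies on the opposite strand, Atp6v1a, Ctns, Cln3 and Galns among them. For these counts no share over marked genes is given. At Ctns, the cystine transporter, the peaks were at -163 and -192 bp, between its TSS and that of the kinase gene Shpk 418 bp away. At Galns, a downstream peak was taller in replicate 1, and in replicate 2 the tallest peak lay at -427 bp from its TSS and 244 bp downstream of that of Trappc2l, whose start is 183 bp from the nearest start of Galns. Trappc2l encodes a subunit of a vesicle tethering complex. At Cln3 the tallest peak was at -229 and -221 bp from the nearest TSS, in an intron of longer transcripts and over 1 kb from Apobr.

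At Atp6v0c the tallest peaks were at -107 bp in replicate 1 and 333 bp in replicate 2. Atp6v0c, Laptm5, Arsb and Galns were the members whose tallest peaks did not overlap between replicates. How often this occurred among marked genes was not counted. Npc2 and Atp6v1b2 start 99 bp from Isca2 and 576 bp from Slc18a1, and their tallest peaks were nearer to their own TSS than to the neighbor's, at 381 and 375 bp and at 273 and 282 bp downstream. At Atp6v1h the single promoter peak lay 171 and 140 bp downstream of an inner TSS, and the start of Rgs20, 267 bp away, faces another TSS of the gene that had no peak.

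Peaks within the gene body, beyond 1 kb of a TSS, numbered 0 or 1 in each replicate at all members but those named next. They were not counted for marked genes at large. Laptm5 had 4 in replicate 1 and 2 in replicate 2, up to 92.7 and 115.6 tags per 10 M, Psap had 4 and 3, Grn had 3 and 3, and Hexa, the alpha chain of beta-hexosaminidase, had 1 and 3. When peaks less than 1 kb apart were joined, a stretch over 1 kb was found at 5 members in replicate 1 (15.2%, against 11.7% of marked genes) and 3 in replicate 2 (9.09%, against 10.8%). Laptm5 was the member found in both, with 2517 and 1768 bp, against 6.55% of marked genes.

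At the authors' threshold, a larger share of the 33 members than of marked genes at large had an interaction, while the mean number per gene was alike. An interaction is a pair of bins of 5 kb called by the authors with a false discovery rate up to 0.01 and at 2 or more times the expected read pairs, and a gene has one when a bin holds 1 of its TSSs. At least 1 was found for 21 of 33 members (63.6%), against 37.8% of marked genes and 40.4% of marked genes with a value at least that of Cd68. Among 74 other marked lysosomal genes, described below, the share was 43.2%. Per gene the mean was 1.33 for members and 1.35 for marked genes. A single interaction was held by 30.3% of members and 11.4% of marked genes, and 5 or more by 2 members (6.06%) and 9.12% of marked genes, shares that differ by about 1 member. These are descriptions of 1 combined list, which has no replicate error.

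The excess depended on the threshold. With the false discovery rate held to 0.0001 or less, 9 of 33 members (27.3%) had an interaction, against 24.6% of marked genes. With at least 20 read pairs the shares were 45.5% and 23.0%, and with 1 interaction kept per cluster of neighboring calls they were 33.3% and 24.8%. With bins that held a TSS of no other gene, a setting added after the values were seen, they were 45.5% and 30.7%.

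**Figure D3:**
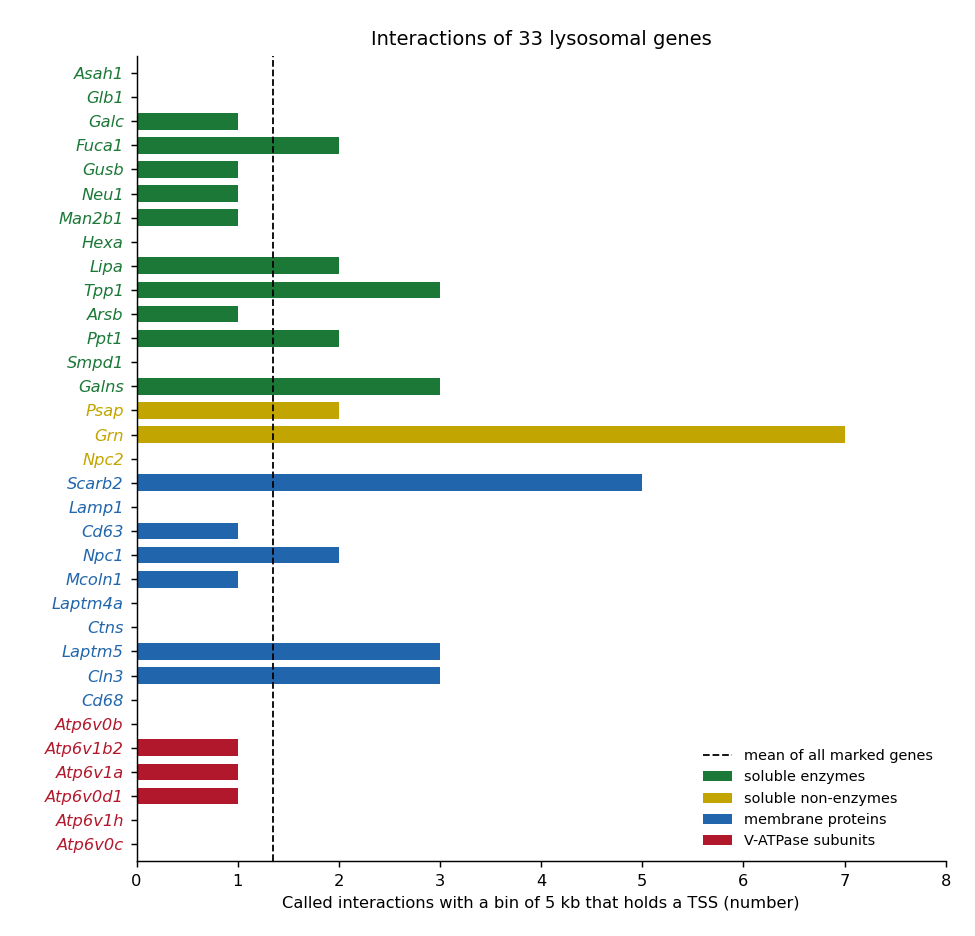
Number of called interactions whose bin of 5 kb holds a TSS of the gene, for each lysosomal gene, colored by class and in the order of the plot of H3K4me3 values. The dashed line is the mean over all marked genes (1.35). Grn has 7 and Scarb2 has 5, 12 genes have 0, and the 3 pump subunits with an interaction have 1 each.

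By class, 10 of 14 enzymes, 2 of 3 soluble non-enzymes, 6 of 10 membrane proteins and 3 of 6 pump subunits had an interaction. The mean number was 0.5 per pump gene, against 1.21 for enzymes, 1.5 for membrane proteins and 3 for soluble non-enzymes. This order did not hold with 1 interaction kept per cluster, where the means were 0.5 for the pump, 0.286 for enzymes, 0.5 for membrane proteins and 0.333 for soluble non-enzymes. All 3 pump interactions came from bins shared with another gene, namely Naa50 for Atp6v1a, Agrp for Atp6v0d1 and Slc18a1 for Atp6v1b2. Across the 33 members, the number of interactions did not follow the H3K4me3 value (Pearson's r on the log2 value -0.011, Spearman's rho -0.14). Over marked genes these were 0.1 and 0.12, across genes of the same libraries.

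The 12 members without an interaction were Hexa, Glb1, Asah1, Smpd1, Npc2, Lamp1, Laptm4a, Cd68, Ctns, Atp6v0b, Atp6v0c and Atp6v1h. They include the gene with the highest mark, Atp6v0b, and the gene with the lowest, Cd68. When the bins next to the TSS bin were counted too, 11 of the 12 still had 0, and Npc2 had 1. Absence of a call does not show absence of contact, and the depth of PLAC-seq is unknown.

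The members had 44 interactions in 25 clusters. Their median ratio of read pairs to expected pairs was 3.01, against 3.91 for the 14241 interactions of marked genes, and their median distance was 65 kb, against 125 kb. Within 50 kb lay 20 of the 44 (45.5%), against 20.4%, and 4 lay beyond 200 kb. At matched distance the median ratios lay close to each other, without a test. From 10 to 50 kb the medians were 2.42 for members and 2.47 for marked genes, and from 50 to 200 kb they were 3.77 and 3.8. Beyond 200 kb they were 4.56, over 4 interactions, and 5.16.

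**Figure D4:**
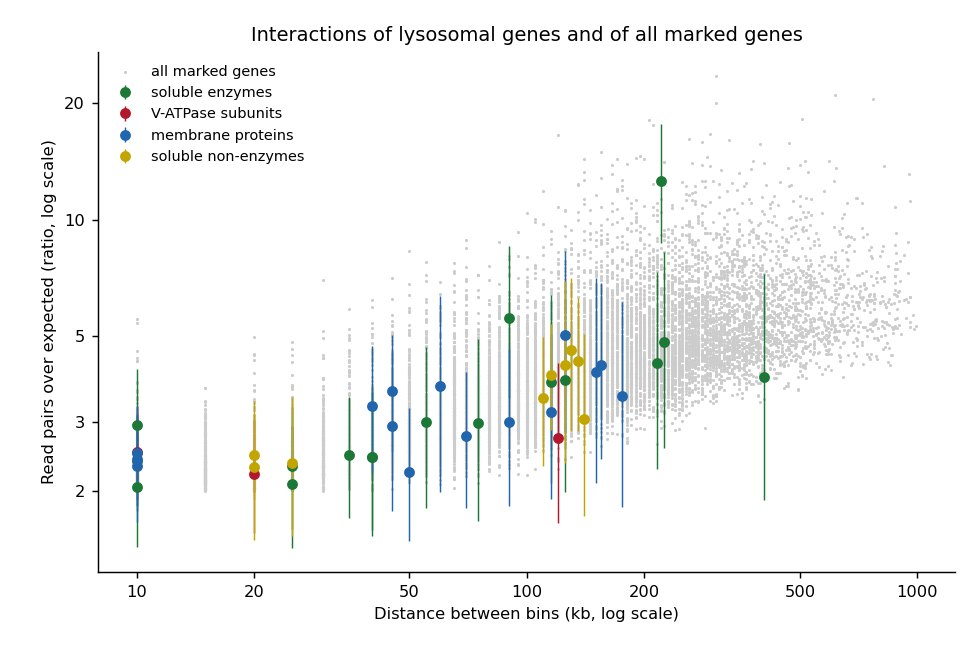
Read pairs over expected pairs against the distance between bins in kb, both on log scales, for the 44 interactions of lysosomal genes (colored by class) and the 14241 of all marked genes (gray). Bars are exact 95% Poisson intervals, which cover counting error only. Colored points lie within the gray cloud at each distance, and the point at 220 kb and 12.6 belongs to Galns.

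The strongest interaction joined the promoter bin of Galns and Trappc2l, chr8:122610001-122615000, to chr8:122830001-122835000, 220 kb upstream of Galns. It held 33 read pairs against 2.61 expected, a ratio of 12.6 (exact Poisson interval 8.7 to 17.7, false discovery rate 9.1e-22). Both neighboring far bins were called too, with ratios of 4.28 and 4.84 from 13 pairs each. The annotation places all 3 far bins inside Gm20388, a gene model with no exon there, and no H3K4me3 peak lay in them in either replicate. The far bins at 215 and 225 kb hold exons of the gene models Gm45743 and Gm45893. With both genes in 1 bin, the interaction cannot be assigned to 1 of them.

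Grn had the most interactions, 7 in 2 clusters. Its bin, chr11:102430001-102435000, held no TSS of another gene. At 20 kb upstream it had 63 read pairs against 25.5 expected (2.47). The other 6 lay 110 to 140 kb upstream, around Ubtf, a factor for ribosomal RNA transcription, and Atxn7l3, a subunit of a deubiquitinase of histone H2B. The bin with the TSS of Ubtf, chr11:102315001-102320000, was joined by 42 pairs against 10.6 (3.98, interval 2.87 to 5.37) and carried H3K4me3 of 342.8 and 390.1. The bin with the TSS of Atxn7l3 was joined by 27 pairs against 6.25 (4.32) and carried 206.5 and 204.4, and the strongest, a bin within Ubtf at 130 kb, had 21 against 4.55 (4.62) and no peak. These 6 belong to 1 cluster of 43 called pairs, so they are not independent contacts.

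Scarb2 had 5 interactions in 2 clusters, and its bin held no other gene. Upstream, bins within Ccdc158 at 150 and 155 kb had ratios of 4.04 and 4.23, from 12 and 16 read pairs. Downstream, 2 bins within Scarb2 itself at 40 and 45 kb had 3.3 and 3.62, and the bin with the TSS of Nup54, a nucleoporin gene, at 70 kb had 2.77. The intervals of all 5 overlapped.

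**Figure D5:**
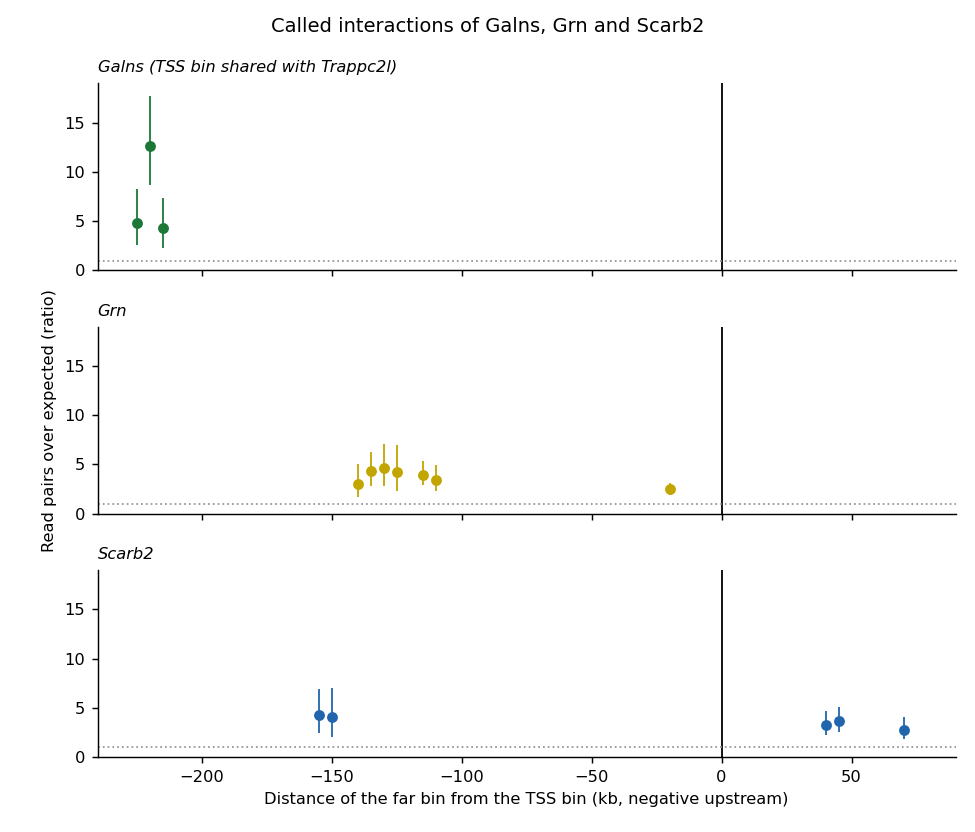
Read pairs over expected pairs for each called interaction of Galns, Grn and Scarb2 against the distance of the far bin from the TSS bin in kb, with upstream of the gene negative. Bars are exact 95% Poisson intervals and the dotted line marks a ratio of 1. The Galns interaction at 220 kb upstream, with 12.6, stands above its neighbors at 215 and 225 kb, and its interval (8.7 to 17.7) lies above those of all interactions of Grn and Scarb2.

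The 10 strongest interactions, with ratios of at least 4.04, belonged to 5 members. Beside those of Galns, Grn and Scarb2 they were that of Man2b1, with 21 read pairs against 3.76 (5.59) to a bin 90 kb downstream that holds the TSS of Cks1brt, and that of Laptm5, with 15 against 2.97 (5.05) to a bin 125 kb upstream. The bin of Man2b1 also holds TSSs of Wdr83 and Wdr83os. Of these 10, 9 pointed upstream of the gene, in 4 clusters, so they are not separate contacts. A ratio of 4 or more was reached by 22.7% of the members' interactions and 47.4% of those of marked genes.

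Other members had 1 to 3 interactions each. Lipa, the acid lipase of lipoprotein breakdown, reached a bin 115 kb upstream with the TSSs of the interferon-induced genes Ifit1 and Ifit1bl2 (3.82, far H3K4me3 31.9 and 44) and, as its strongest, a bin of Ifit1 at 125 kb (3.85). Gusb, the beta-glucuronidase, reached the TSSs of Asl and Crcp at 25 kb (2.08). Cln3, whose bin also holds Apobr, reached those of Bola2 and Slx1b at 115 kb (3.2), and Atp6v1b2 that of Zfp930 at 120 kb (2.74).

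Neu1, the sialidase, reached the region of Cfb and Nelfe at 75 kb (2.99) with no TSS in the bin. Arsb, the arylsulfatase B, had the longest contact, 405 kb to an intron of Lhfpl2 (3.93, from 10 read pairs). Cd63 reached Dgka at 175 kb (3.52), and Npc1 reached Rmc1 at 60 kb (3.72). Tpp1, a lysosomal peptidase, had its strongest at 55 kb in Mrpl17 (3.01), and the fucosidase gene Fuca1 at 35 kb in a region with no protein-coding gene (2.48).

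The remaining members had short contacts. At 10 kb, Galc had 2.96, Atp6v1a 2.52, Mcoln1 2.41 and Ppt1, a thioesterase, 2.39, each to a bin inside the same gene. Atp6v0d1 reached 20 kb (2.21), and Psap 25 kb (2.36). Both interactions of Psap came from the bin of an inner TSS, chr10:60280001-60285000, not from the bin of its tallest peak. With its outermost TSS alone, Psap had 0.

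Of the 44 interactions, 30 lay upstream (68.2%) and 14 downstream of the gene. Over the 16708 pairs of a marked gene and its interaction, 49.5% lay upstream. The 44 fell in 25 clusters, so they are not separate contacts, and no shares by cluster are given. The far bin held the TSS of another protein-coding gene in 8 (18.2%, against 15.9% of those pairs), carried H3K4me3 in both replicates in 8 (18.2%, against 21.6%), and met both conditions in 6 (13.6%, against 12.9%). It lay inside the same gene in 9, at 10 to 45 kb. In 33 of 44 the far bin held no H3K4me3 peak in either replicate (75.0%, against 73.8%). Of the 44, 10 came from a bin shared with another gene and 34 did not. For this count and that of far bins inside the same gene, no share over marked genes is given.

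Other genes of the pathway were mostly marked. Of 90 further genes, listed by known role, 85 were autosomal. Of these, 74 were marked, against 59.4% of all autosomal protein-coding genes, with a median value of 264.7. Above the median of marked genes in both replicates were 47 of the 74, against 45.1% of all marked genes. An interaction was found for 32 of 74 (43.2%), against 37.8% of marked genes. Most were held by Cd164, a sialomucin, with 10, Tpcn1, a cation channel gene, with 9, and Slc29a3, a nucleoside transporter gene, with 8, followed by Tmem192, Plbd2 and Atp6v1g2 with 5 each.

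Among the other pump subunits, 11 of 18 autosomal genes were marked, against 59.4% of all autosomal protein-coding genes. Of the 11, 10 lay above the median of marked genes in both replicates, as did 45.1% of all marked genes. Their median was 272.5, against 336.6 for the 6 pump subunits among the members. For genes of sorting by mannose 6-phosphate and related receptors the median was 278.1. It was 277.2 for other membrane proteins and 229.2 for other soluble enzymes and activators. The unmarked pump subunits were largely forms known from kidney, testis or osteoclasts, where other V-ATPase complexes work. Atp6v0a4, Atp6v0d2, Atp6v1b1, Atp6v1e2 and Atp6v1g3 had no promoter peak in either replicate, Atp6v0e2 had one in replicate 1 (12.5) and Atp6v1c2 in replicate 2 (5.22). Atp6v1g2, known from neurons, was marked at 85.7 and 76.1. Outside the pump, Acp5, Hyal1 and Mcoln3 had no peak, and Epdr1 had one in replicate 1 (17.9). Of the 5 X-linked genes, Atp6ap1, Atp6ap2, Gla, Ids and Lamp2, no interactions could be read, since the list holds autosomes.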

How the data were processed

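The members and all gene lists were chosen with earlier results of these data known. The authors deposited 1 H3K4me3 peak list per library, with mm10, Bowtie2 and HOMER named in the submitters' processing notes. Per the file headers, a peak's deposited signal is its tags per 10 M tags, its tag count is a whole number, and the authors' fold over input is a ratio. The p-value, the focus ratio (a fraction) and the score of each peak were deposited and not used. The PLAC-seq list of the authors (MAPS, bins of 5 kb, both libraries combined) gives a read pair count, an expected count and a false discovery rate, an adjusted p-value. Its deposited −log10 cluster p-value was not used. The ratio of count to expected was computed here, with exact Poisson intervals at 95% that cover counting error only.

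TSSs were those of protein-coding transcripts of the GENCODE M21 basic annotation (GRCm38), joined by gene symbol. Genes on chromosomes X and Y were left out of all backgrounds. For genes with several RefSeq windows, the one nearest the tallest peak of replicate 1 was used, and all 15680 windows equaled the genome at their coordinates. Values were named for the 5 highest and 5 lowest members, those with 5 or more interactions and all pump subunits, and interactions for each member's strongest and the 10 strongest. Other values in the text were chosen after they were seen. No test between groups was made. Python 3.11.15, pandas 2.3.3, SciPy 1.17.1 and samtools 1.23.1 were used, and the joins were tested on simulated data.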

Additional observations from a re-analysis of the deposited data

How the results depend on the processing

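No paired analysis was possible because the H3K4me3 libraries form 1 group and the interactions 1 combined list. All 33 members stayed marked within 500 bp or 2 kb, at 10 times input, at 20 tags per 10 M and in each replicate alone, but 0 had a peak over the TSS base in both replicates. The median value of members was 254.2 within 500 bp, 300.2 with all promoter peaks summed, and 274.2 to 290.9 without 1 replicate. With sums it was 264.2 for enzymes, 394.6 for soluble non-enzymes, 283.3 for membrane proteins and 408.9 for the pump, which was 324.3 within 500 bp. Without 1 replicate the class medians ranged from 227.5 to 229.8, from 274.2 to 308.1, from 245.8 to 268.1 and from 342.8 to 348.2, in the same order of classes. With the false discovery rate held to 0.0001 or less, 9 members had 15 interactions, with 4, 1, 3 and 1 members by class, and 21 other lysosomal genes had one. With 1 interaction per cluster, 11 members had 13, with 4 of 14 enzymes, 1 of 3 soluble non-enzymes, 3 of 10 membrane proteins and 3 of 6 pump subunits, so the pump went from the lowest share of the 4 classes to the highest. At least 20 read pairs left 27 interactions, and adding the next bins gave 76. With the outermost TSS 1 soluble non-enzyme had an interaction, with the authors' gene symbols 1 pump subunit, and with no other gene in the bin 0 pump subunits. Within 1 kb centered on the start, 11 windows of members held the E-box core, against 17.8% of all windows. Of the other recomputed values, 322 single-gene or single-motif values and 48 summary values kept within the replicate spread or 1.5 times the count, and 81 single-gene or single-motif values moved further.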
